A study of Caenorhabditis elegans with 12 samples.

Results

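The genes *nuo-4*, *cox-6B*, *cox-5A*, *atp-3* and *cyc-2.1* are nuclear genes of the mitochondrial respiratory chain that lay within 2000 bp of peaks of the transcription factor KLF-1. At *cyc-2.1* another gene lies between the gene and the peaks. They were chosen by the deposited peak lists, with results of these data known, from the respiratory chain genes that have a peak within 2000 bp of their span. A peak at that distance in at least 1 library was found at 17 of the 69 respiratory chain genes listed here, so that the 5 are a selection of these, out of 19983 protein-coding genes in the RefSeq gene table of the worm genome (WBcel235). The share of protein-coding genes with a peak in at least 1 library is not given here, so nothing is read from the 17. Because presence of a peak selected the 5 genes, their peaks are given as a description, without a test. The lists held 13 peaks at these genes among 3116 in all, and all 13 were found in *isp-1;ctb-1* libraries.

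The respiratory chain passes electrons from NADH and succinate through complexes I, II and III to cytochrome c and on to complex IV, where oxygen is reduced. The proton gradient built on the way drives ATP synthase. Most subunits are encoded in the nucleus and imported, while a small set comes from mitochondrial DNA, so that the complexes are assembled from products of both genomes. Krüppel-like factors such as KLF-1 are zinc finger proteins that bind GC-rich and CACCC-type DNA.

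KLF-1 fused to YFP was expressed in both strains from the *vha-6* promoter, which drives expression in the intestine, so that whole animals were fixed but only intestinal cells should carry the tagged protein. The transgene came from 1 integrated line, called WT here, which also carries *prab-3::mCherry* and *rol-6(su1006)* markers and was then combined by crossing with the *isp-1(qm150);ctb-1(qm189)* mutations to give the mutant strain. *isp-1* encodes the Rieske iron-sulfur protein and *ctb-1* the mitochondrially encoded cytochrome b, both of complex III. Animals of both strains ate HT115 bacteria with the empty L4440 vector and were collected on day 1 of adulthood (D1). Each strain gave 3 ChIP libraries, pulled down with GFP-Trap beads, and 3 input libraries. No ChIP library from animals without the tag was used here, so that DNA that gives a peak without KLF-1 cannot be told apart from KLF-1 binding.

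Uniquely mapped reads, as listed in the Reporting Summary, ranged from 19.5 to 22.6 M for ChIP from WT and from 23.2 to 27.2 M for ChIP from *isp-1;ctb-1* mutants. The WT lists held 303 to 665 peaks and the *isp-1;ctb-1* lists 386 to 620. For a peak called in 1 strain only, the part of depth and that of strain cannot be told apart, and no called peak does not mean no signal. Whether the libraries of 1 strain were made from separate cultures is not stated in the sources used here, so that the spread between them may be technical.

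Each of the 5 genes had a peak in at least 2 of 3 *isp-1;ctb-1* libraries, and none had a peak in a WT library. *isp-1;ctb-1* replicates 1 and 3 had peaks at all 5 genes and replicate 2 at 3 of them. Over all protein-coding genes, 2.4% lay within 2000 bp of a peak in at least 2 *isp-1;ctb-1* libraries and 1.33% in at least 2 WT libraries. Peaks in at least 2 *isp-1;ctb-1* libraries with none in WT were found at 1.31% of protein-coding genes and at all 5 of these. With all 3 *isp-1;ctb-1* libraries needed and again no WT library, this was 0.555% of protein-coding genes and, of the 5, *nuo-4*, *cox-6B* and *cyc-2.1*. These shares are the background for genes that were picked for their peaks, and nothing is read from the difference. At the threshold stated for the study, a fold enrichment over 1.5 and p under 0.05, *cyc-2.1* alone kept peaks in at least 2 *isp-1;ctb-1* libraries. The peaks at *nuo-4*, *cox-6B* and *cox-5A* carry no deposited p-value, so these genes could not pass whatever their fold enrichment.

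**Figure D1:**
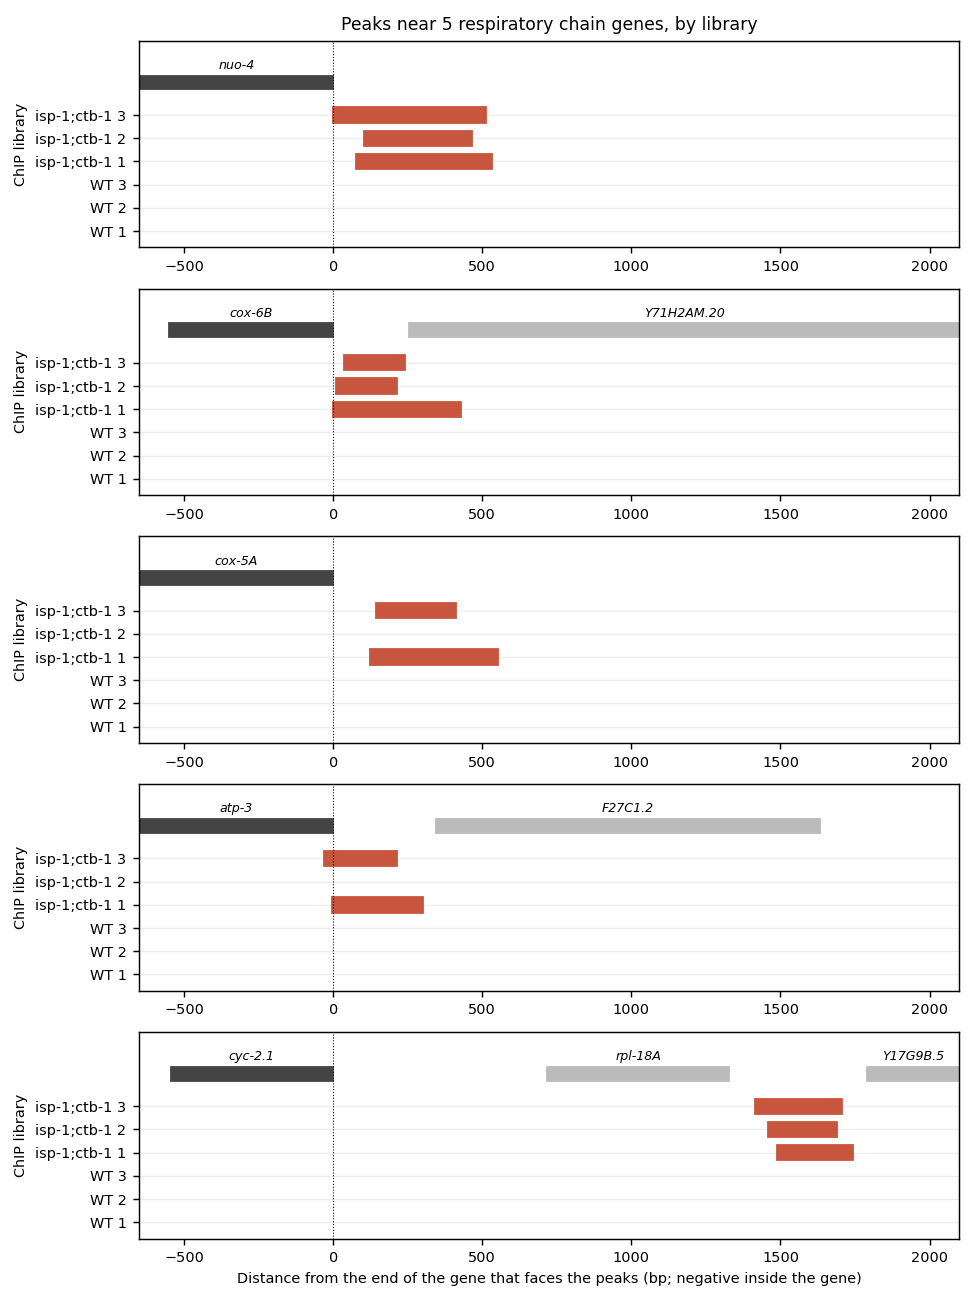
Position of every peak near the 5 genes, as the distance in bp from the end of the gene that faces the peaks (horizontal axis, negative inside the gene), with 1 row per ChIP library (vertical axis). Dark bars are the named gene, light bars other protein-coding genes, and red bars peaks of *isp-1;ctb-1* libraries; the WT rows are empty, and the peaks of each gene lie on top of each other.

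*nuo-4* (K04G7.4) encodes a subunit of complex I, the NADH dehydrogenase, of the family of mammalian NDUFA10. In RefSeq it spans chromosome III from 7156026 to 7158809, which is 2784 bp. Its fold enrichment over input, the authors' value for how much ChIP signal exceeds input signal in a peak, was 1.96, 1.85 and 2.08 in *isp-1;ctb-1* replicates 1, 2 and 3. The mean was 1.96 ± 0.116 (SD, n = 3), the narrowest spread among the genes with 3 peaks. The peaks ran from 7155492 to 7155950, from 7155562 to 7155922 and from 7155515 to 7156026. They shared 361 bp, which is the whole peak of replicate 2, and were 459, 361 and 512 bp wide.
The peaks lay on the lower-coordinate side of *nuo-4*, 76 and 104 bp away in replicates 1 and 2 and reaching the first annotated base in replicate 3. The next gene on that side is *ogt-1*, the O-GlcNAc transferase, which lay 1695 to 1765 bp from the peaks. All 3 peaks were therefore closer to *nuo-4* than to any other annotated protein-coding gene, although the lists assigned no gene to them. The closest WT peak on the chromosome was 249493 bp from them. The peaks at *cox-6B* and *cox-5A*, also on chromosome III, were likewise assigned no gene. Among peaks near the respiratory chain genes, all on chromosome III lacked a deposited p-value and all on other chromosomes had one.

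*cox-6B* and *cox-5A* encode nuclear subunits of complex IV, the cytochrome c oxidase. *cox-6B* (Y71H2AM.5) spans chromosome III from 2786202 to 2786754. Its fold enrichment was 2.34, 1.81 and 2.04 in *isp-1;ctb-1* replicates 1, 2 and 3, with a mean of 2.06 ± 0.263 (SD, n = 3). The 1.81 of replicate 2 was the lowest value among the 13 peaks. The peaks ended 1, 9 and 35 bp before the lower end of the gene. Their widths of 429, 205 and 208 bp differed most among the genes with 3 peaks, and the part shared by all 3 ran from 2785989 to 2786167 (179 bp).
This interval is also the space between *cox-6B* and Y71H2AM.20, whose spans are 253 bp apart. The peak of replicate 1 reached into Y71H2AM.20, and the others ended at most 41 bp from it. On the other side of *cox-6B*, after 97 bp, lies *nduc-2* (Y71H2AM.4), a small subunit of complex I, at 651 to 685 bp from the peaks. The same 3 peaks therefore count for a complex IV gene and a complex I gene, and position alone does not assign them to one of these genes.
*cox-5A* spans chromosome III from 12905491 to 12906619 in RefSeq, the place used here. The target list of the study sets the same symbol at another locus, which in RefSeq is *cox-5B*. That locus has a peak in WT replicate 2, given with the other list genes, so the absence of a WT peak at *cox-5A* holds for the RefSeq gene. Its peaks had a fold enrichment of 2.13 in *isp-1;ctb-1* replicate 1 and 2.41 in replicate 3, and replicate 2 had no peak there. The peak of replicate 1 ran from 12904937 to 12905369 and contained the one of replicate 3, from 12905078 to 12905348. They lay 122 and 143 bp from the gene, again on its lower-coordinate side. No other annotated gene lay within 2000 bp of these peaks, which among the 5 genes was the case for *cox-5A* alone. The closest WT peak was 38775 bp away, the shortest such distance among the 5 genes.

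*atp-3* (F27C1.7) encodes the OSCP subunit, which joins the catalytic head of ATP synthase to its stalk. It spans chromosome I from 5428545 to 5429819 and, per the lists, is read from the minus strand. Fold enrichment was 2.45 in *isp-1;ctb-1* replicate 1 and 2.1 in replicate 3, with no peak in replicate 2. The peaks ran from 5429815 to 5430119 and from 5429789 to 5430033, over the 5′ end of the gene in both libraries.
The lists assigned *atp-3* to both peaks, with a deposited p-value of 0.0313 in replicate 1 and 0.139 in replicate 3. The sources used here do not state what this p-value tests. F27C1.2, read in the opposite direction, begins 343 bp from *atp-3* and 44 to 130 bp from the peaks, so that the peaks lie between a pair of genes read away from each other. The space also holds the non-coding RNA genes F27C1.16 and F27C1.17, which both peaks overlap. The lists also assigned F27C1.1 and *utp-14* (F27C1.6 in the lists), a gene for ribosomal RNA processing in yeast, whose span lay 1332 to 1358 bp from the peaks.

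*cyc-2.1* (E04A4.7) encodes cytochrome c, the mobile carrier between complexes III and IV. It spans chromosome IV from 4747904 to 4748449 and is read from the minus strand. Fold enrichment was 2.5, 2.2 and 2.67 in *isp-1;ctb-1* replicates 1, 2 and 3, with a mean of 2.46 ± 0.236 (SD, n = 3). In each of these libraries it was the highest among the 5 genes, and its peaks ranked 42 of 620, 18 of 386 and 12 of 565 in their lists. The peaks were 254, 230 and 293 bp wide and shared 200 bp, from 4749938 to 4750137.
These peaks were the farthest from their gene. They lay 1489, 1459 and 1413 bp from the RefSeq span, and 825, 795 and 749 bp from the longer span that the lists give to *cyc-2.1*. *rpl-18A* (*rpl-20* in the lists), a gene of the large ribosomal subunit, lies between them and *cyc-2.1*. The peaks fell in the space between *rpl-18A*, 84 to 160 bp away, and Y17G9B.5, 49 to 103 bp away, and so were closer to both genes than to *cyc-2.1*. The lists assigned these genes, Y17G9B.4, *tctn-1* and *timm-17B.1* beside *cyc-2.1*, with deposited p-values of 0.0259, 0.0658 and 0.0225 in replicates 1, 2 and 3.

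The 13 peaks were modest in height and lay on one side of each gene. Fold enrichment ranged from 1.81 to 2.67 and width from 205 to 512 bp. On the coordinate axis, 8 peaks lay below the gene and 5 above it, and only 3 overlapped the RefSeq span. Within their own lists the peaks of replicate 1 stood between the 53.5 and 93.3 percentiles of fold enrichment, those of replicate 2 between 71.8 and 95.3, and those of replicate 3 between 75.9 and 98. Every one of them exceeded the widest peak on mitochondrial DNA in the same list, by 1.23 to 1.88 times. That peak had a fold enrichment of 1.33, 1.45 and 1.66 in *isp-1;ctb-1* replicates 1, 2 and 3. It lay below the medians over all peaks of these lists, which were 1.94, 1.53 and 1.73. In WT replicates 1, 2 and 3 the widest such peak had 2.06, 2.01 and 1.89, above the list medians.
In WT replicates 1, 2 and 3, 231, 273 and 232 peaks had a fold enrichment below 1.81, the lowest of the 13, which is 40%, 41.1% and 76.6% of each list. Fold enrichment depends on the background of each library, so these counts are a description, and no difference between strains was tested with it.

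**Figure D2:**
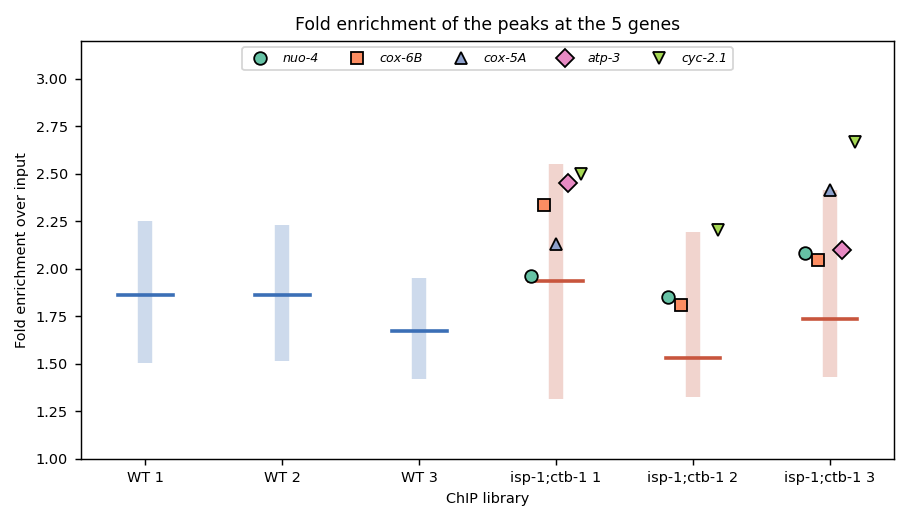
Fold enrichment over input (vertical axis) of the peaks at the 5 genes (symbols) in each ChIP library (horizontal axis), beside all peaks of that list, with the median as a line and a pale bar that leaves out the lowest and highest 5% of peaks. All 13 symbols lie above the median of their library, between 1.81 and 2.67, and those of *cyc-2.1* are highest in each *isp-1;ctb-1* library.

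To set these genes among their like, overlapping peaks (1 bp or more) were merged across libraries. Peaks of the 3 *isp-1;ctb-1* libraries and none of WT made up 60 regions, and those at *cyc-2.1*, *cox-6B* and *nuo-4* ranked 6, 38 and 50 by the mean percentile of fold enrichment. The region at *cyc-2.1* thus stood near the top and the other two in the lower part. The other 57 regions had a median of mean fold enrichment of 2.12 and a median of mean peak width of 370 bp. Mean peak widths were 444 bp at *nuo-4*, above that median, and 281 bp at *cox-6B* and 259 bp at *cyc-2.1*, both below it.

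The authors' table of the comparison between strains covers 287 regions with a mean for each of 2 conditions, which it does not name. All 63 regions built from *isp-1;ctb-1* peaks only had the higher mean in condition 2, and 35 of 40 built from WT peaks only had it in condition 1. The authors' mean at *cyc-2.1* was 124 in condition 1 and 187 in condition 2, a ratio of 1.51. At *cox-6B* the means were 144 and 200.2, a ratio of 1.39. At *atp-3*, where the region holds the peak of replicate 1 and carries the symbol F27C1.2, they were 108 and 148, a ratio of 1.37. The table has no region at *nuo-4* or *cox-5A*.
The regions at all 3 genes were therefore higher in condition 2, as were 49.1% of all regions of the table. Every region built from *isp-1;ctb-1* peaks only was so, with a median ratio of 1.45 and a range of 1.24 to 2.22, and the 3 regions lie within that range. They also lie at the low end of the signal. Their condition 1 means stood at the 6.97, 10.8 and 3.14 percentiles for *cyc-2.1*, *cox-6B* and *atp-3*, and the median over all regions was 1303. The table gives no value per library, so these ratios have no replicate error and were not tested.

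**Figure D3:**
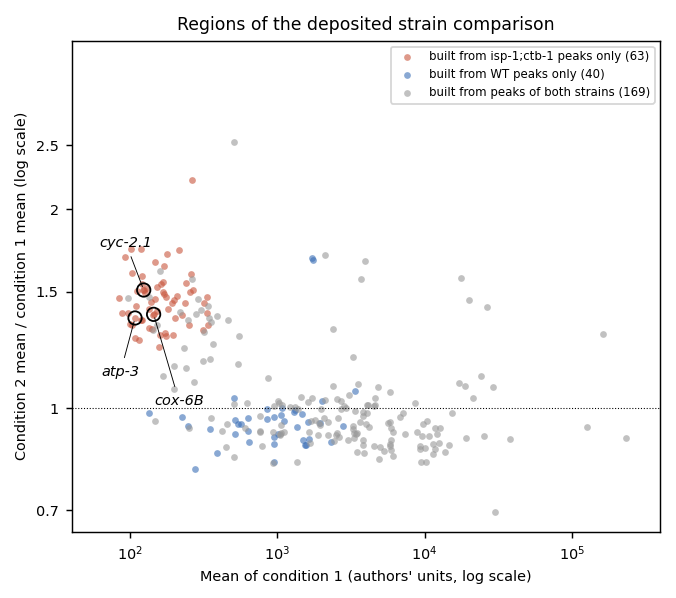
Ratio of the authors' mean in condition 2 to that in condition 1 (vertical axis, log scale) against the mean in condition 1 (horizontal axis, authors' units, log scale), 1 point per region, coloured by the strain whose peaks it was built from. The circled regions at *cyc-2.1*, *cox-6B* and *atp-3* have ratios of 1.51, 1.39 and 1.37 and lie among the other regions built from *isp-1;ctb-1* peaks only, at the low end of condition 1; the 15 regions with a peak that matched no list entry are not drawn.

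The other 64 genes of the respiratory chain list were counted beside the 5. One of them, *nduc-2*, lies near the peaks of *cox-6B*, so that its count rests on peaks used to choose the 5. A peak within 2000 bp was found at 1, 2 and 0 of them in WT replicates 1, 2 and 3 and at 10, 3 and 4 of them in *isp-1;ctb-1* replicates 1, 2 and 3. With the peaks of *nduc-2* included, the counts of the strains did not overlap. The mean was 1 ± 1 (SD, n = 3) for WT and 5.67 ± 3.79 (SD, n = 3) for the mutants. The difference of 4.67 genes gave p = 0.1 in a two-sided exact permutation test, the smallest p that 3 libraries against 3 allow. Without the peaks at the 5 genes the *isp-1;ctb-1* counts were 9, 2 and 3. The strains then overlapped, because replicate 2 of each had 2 such genes. The difference was 3.67 (exact permutation p = 0.2). At the stated threshold the difference was 0.333 (exact permutation p = 1). Every WT peak counted here carries a deposited p-value, but several *isp-1;ctb-1* peaks carry none and could not pass. Of the *isp-1;ctb-1* peaks with a deposited p-value, only that at *cox-5B* in replicate 1 was under 0.05, at 0.0493. The others had 0.0846 to 0.207, and no WT peak counted here was under 0.05. Whether the peaks without a p-value would have passed was not tested. Without *isp-1;ctb-1* replicate 1, which had the most such genes, the difference was 2.5 (exact permutation p = 0.2).
As a share of the 64, this was 1.56%, 3.12% and 0% in WT against 1.78%, 1.83% and 0.821% of all protein-coding genes in the same libraries. In *isp-1;ctb-1* mutants it was 15.6%, 4.69% and 6.25% against 4.34%, 1.69% and 2.75%. The shares of the list were above those of all protein-coding genes in each *isp-1;ctb-1* library and in 1 of 3 WT libraries. In WT the comparison rests on 3 genes in all, *ucr-11*, T02H6.11 and *cox-5B*.

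Of the 64, 4 had a peak in at least 2 *isp-1;ctb-1* libraries and 0 in at least 2 WT libraries. Over all protein-coding genes the shares by the same rules were 2.4% and 1.33%. With so low a share in WT, little can be read from the 0 among 64 genes. Of these 4, 2 had no peak in any WT library, as was the case for the 5, and one of the pair is *nduc-2*, which counted through the peaks of *cox-6B*. T02H6.11, a complex III subunit, had 1.95 in WT replicate 1 and 1.80 and 1.99 in *isp-1;ctb-1* replicates 1 and 2. *cox-5B* (F26E4.9, *cco-1* in the lists), a complex IV subunit, had 2.18 in WT replicate 2 and 2.33 and 2.14 in *isp-1;ctb-1* replicates 1 and 3. T02H6.11 and *cox-5B* each had a peak in 1 WT library. The authors' means at *cox-5B* were 151 and 201.7, a ratio of 1.33.
By complex, a peak in at least 2 *isp-1;ctb-1* libraries was found at 3 of 30 genes of complex I, 0 of 5 of complex II, 1 of 10 of complex III, 3 of 7 of complex IV, 1 of 15 of ATP synthase and 1 of 2 cytochrome c genes, the 5 chosen genes included. By the same rule the share of all protein-coding genes was 2.4%. The counted genes of ATP synthase and cytochrome c were *atp-3* and *cyc-2.1*, and those of complex IV included *cox-6B* and *cox-5A*. Because the 5 were picked for their peaks, nothing is read from these counts. *isp-1*, the mutated nuclear gene of complex III, had no peak within 2000 bp in any library.
A peak in a single library was found at 8 more genes. In *isp-1;ctb-1* replicate 1 these were *mev-1* and *sdha-1* of complex II, *ucr-2.2* and T27E9.2 of complex III, and *atp-1* and Y82E9BR.3 of ATP synthase. Replicate 3 added *ndub-10* of complex I and WT replicate 2 added *ucr-11* of complex III. The rule on distance bears on the outermost of these. *ndub-10* lay just inside it at 1998 bp, and the next list genes beyond it were *cox-4* at 4107 bp and *sdhd-1* at 5842 bp, while *cyc-2.1*, the farthest of the 5, lay at 1413 to 1489 bp.

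**Figure D4:**
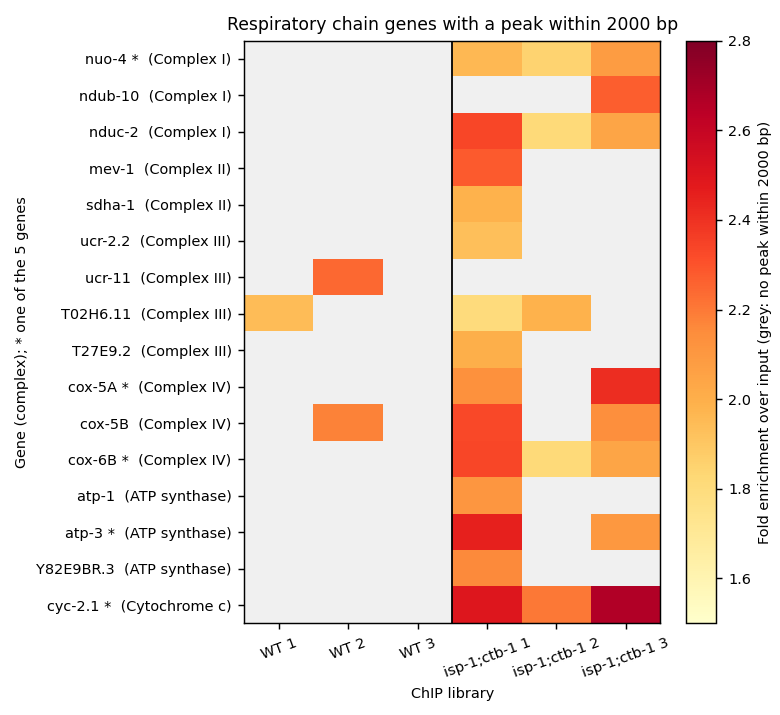
Fold enrichment over input (colour scale) at 16 of the 17 respiratory chain genes with a peak within 2000 bp in at least 1 ChIP library, with genes by complex on the vertical axis, ChIP libraries on the horizontal axis, grey where no peak was called and a star at the 5 chosen genes. Of the genes drawn, 8 have a peak in at least 2 *isp-1;ctb-1* libraries and 3 have one in a WT library; *nduc-2* repeats the values of *cox-6B* because the same peaks lie near both.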

How the data were processed

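The 12 libraries comprise 6 from KLF-1-YFP ChIP and an input for each. Samples were grouped by their labels. QuickNGS was the authors' pipeline, with FastQC 0.10.1 for quality, BWA (no version stated in the sources used here) for alignment of single-end reads to the genome of Ensembl release 93, and MACS2 2.0.10 for peaks, called separately for every ChIP library over its matched input. The deposited lists hold a fold enrichment, a ratio of ChIP to input per peak, and a deposited p-value for peaks with an assigned gene. The authors' deposited comparison table holds condition means, treated here as a score because the sources used here do not state their normalization. Its fold change and p columns were not used.

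A peak was given to a gene within 2000 bp of its RefSeq span (WBcel235), and all deposited peaks were used. The 5 genes were selected on their peaks, and the genes and lists were chosen with earlier results of these data known. The list has 70 names for 69 genes, all matched. Named genes are the 5, every protein-coding gene within 2000 bp of their peaks, and list genes with a peak in at least 2 libraries of 1 strain. Genes with a peak in a single library, those near the distance limit, *isp-1* and genes assigned only in the lists were named outside this rule, after their values were seen. The only test was the exact permutation test of gene counts between strains. Alternatives were the stated threshold (fold enrichment over 1.5 and p under 0.05), fold enrichment alone, 1000 and 5000 bp, other numbers of libraries, each library left out, an overlap of 50%, differences of means and a replicate block. Scripts were tested on simulated peaks. One gene that this rule names is not reported here. No genome sequence was used here, so promoter motifs were not searched. Python 3.11.15, numpy 2.4.6, pandas 2.3.3, scipy 1.17.1 and matplotlib 3.10.9 were used.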

Additional observations from a re-analysis of the deposited data

How the results depend on the processing

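No alternative reversed a direction. At the stated threshold, 1 of the 5 genes (*cyc-2.1*) kept peaks in at least 2 *isp-1;ctb-1* libraries, while *atp-3* kept 1 peak and the 8 peaks at *nuo-4*, *cox-6B* and *cox-5A* carry no p-value and could not pass. There the other list genes differed by 0.333 (exact permutation p = 1), and part of their *isp-1;ctb-1* peaks could not pass for the same reason. Fold enrichment over 1.5 alone kept all 5. Within 1000 bp of the RefSeq span *cyc-2.1* was lost, leaving 4. Its peaks lay 749 to 825 bp from the longer span in the lists, so this loss depends on the annotation. With a peak needed in 3 of 3 libraries, 3 genes were left. With each library left out in turn and peaks still needed in 2, this number ranged from 3 to 5, and without *isp-1;ctb-1* replicate 1 or replicate 3 *cox-5A* and *atp-3* were lost. No alternative gave WT any of the 5 genes, although stricter filters and left-out libraries could not have done so. The difference in other list genes was 4.33 within 1000 bp and 5.67 within 5000 bp, and ranged from 2.5 to 6 over libraries left out. Without the peaks at the 5 genes, an alternative chosen after seeing the data, it was 3.67 (exact permutation p = 0.2). With the replicate block it was 4.67 (exact sign-flip permutation p = 0.25, the smallest possible). Deviations of same-numbered libraries over 1216 genes correlated at -0.142, 0.0863 and -0.167, so the numbers were not taken to pair the libraries.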
